A study of Mus musculus with 10 samples.

Results

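The genes described are those of the axonal cytoskeleton in mouse dorsal root ganglia (DRG): the neurofilament genes *Nefl*, *Nefm*, *Nefh* and *Ina*, the peripherin gene *Prph*, the progenitor and non-neuronal intermediate filament genes *Vim* and *Nes*, and *Gap43*, *Stmn2* and *Tubb3*. The list was set by gene symbol and by no threshold on a value, but with earlier results of these data known. All 10 had counts among the 55414 genes listed, and all 10 were among the 17490 genes with enough reads to be tested. None differed detectably between control and *WD1* cKO ganglia. Among the 10 genes, *Tubb3* and *Prph* stayed nearly at one level in every embryo, although the spread of *Prph* was not unusual among well-expressed genes. *Nefl*, *Nefm* and *Nefh* were among the most variable of the well-expressed genes within the groups, with control embryo 3 the lowest library for each.

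DRG were taken at embryonic day E18.5 from 5 control and 5 *WD1* cKO embryos, and RNA from the whole ganglia, which hold neurons and glia, was sequenced in bulk. *WD1* cKO embryos were Wnt1Cre/+Dach1 flox/flox: both *Dach1* alleles are floxed, and the Cre is driven by *Wnt1*, which is active in the neural crest that forms DRG neurons and glia alike. Control embryos also carried Dach1 flox/flox but no Cre (Wnt1+/+Dach1 flox/flox), and the study describes them as littermates. The genotype entries of the labels are exchanged between the groups, so the libraries were grouped by their titles.

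Control libraries held 20465132 to 27528784 counts, and cKO libraries 19757596 to 34796562. *Dach1*, the targeted transcriptional regulator, checked the titles: its level was 35.1 to 41.6 CPM (counts relative to the TMM-scaled library size) in the controls and 19.1 to 20.7 CPM in the cKO, a log2 fold change of -0.92 (SE 0.0504, edgeR's quasi-likelihood test and Benjamini-Hochberg adjustment, adjusted p = 5.48e-06). The remaining *Dach1* counts were not resolved by exon. In whole ganglia, fewer cells of a type and less RNA per cell cannot be told apart, and this holds for every level given here.

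Neurofilaments are polymers that fill the axon and set its calibre. The light, medium and heavy subunits (*Nefl*, *Nefm*, *Nefh*) assemble with α-internexin (*Ina*) or peripherin (*Prph*), and the heavy subunit is added late as axons mature. In sensory ganglia the triplet is rich in large myelinated neurons, whereas peripherin is best known from small unmyelinated ones. Vimentin (*Vim*) and nestin (*Nes*) form the filaments of progenitors, glia and mesenchymal cells. GAP-43 and stathmin-2 (*Stmn2*) act in the growth cone, and class III β-tubulin (*Tubb3*) is a neuronal tubulin.

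The stretch of promoter where a TATA box would lie is shown for the 5 genes with an entry in the RefSeq promoter table, since it is a sequence feature on which genes of this family differ. Each covers the 40th to the 11th base before the annotated start, 5′ to 3′ on the gene's strand, and capitals mark TATAAA. The build is GRCm38.p6, while the counts were made on GRCm39.
Prph, chr15:99055134-99055163, plus strand: ccgcagggcTATAAAgccgccccgcatcgg
Vim, chr2:13574271-13574300, plus strand: aacagtgtTATAAAagcagcgcccttggcg
Ina, chr19:47014641-47014670, plus strand: caaccccgcgccttaaaagccccgcacacc
Nes, chr3:87971053-87971082, plus strand: aataccctcgcttcagctcgctgctggaat
Tubb3, chr8:123411513-123411542, plus strand: ggcagcctcttataagagggcgcggcggag
The letters TATAAA stood in the *Prph* and *Vim* windows and on neither strand of the *Ina*, *Nes* and *Tubb3* windows. Among 32851 promoter windows of the same length and place, 2.08% held them on the gene's strand and 2.66% on either strand. A match is a match of letters and says nothing of use.

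Ordered by level per exon length, the peripheral-neuron filament and the neuronal tubulin came first. Levels per length are CPM per kilobase of exon, averaged over 5 embryos, and depend on the length of all annotated exons. By CPM alone the order differed: *Nefm* ranked 11, *Stmn2* 13, *Prph* 15, *Nefl* 20 and *Tubb3* 21. *Prph* reached 1096 in control and 1087 in cKO, the 8th highest of 17449 genes, and *Tubb3* reached 1030 and 1004, the 10th highest. *Prph* was above *Tubb3* in 10 of 10 libraries, although their ranges over libraries overlapped. *Gap43* (582 in control, 567 in cKO) and *Nefl* (548 and 581) came next and were not ordered, since *Gap43* was the higher in 6 of 10 libraries. *Nefm* (444 and 483) was below *Nefl* in 10 of 10 libraries and above *Stmn2* (405 and 414) in 9 of 10, with overlapping ranges in both cases. The lower levels were separated without overlap: *Vim* at 248 and 245, *Nefh* at 129 and 135, *Ina* at 85.2 and 78.5, and *Nes* at 7.68 and 8.40. Nestin mRNA thus stood at rank 6144, while the other 9 genes were among the 354 highest. The 10 genes together took 1.22% to 1.42% of all counts in the controls and 1.33% to 1.50% in the cKO.

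**Figure D1:**
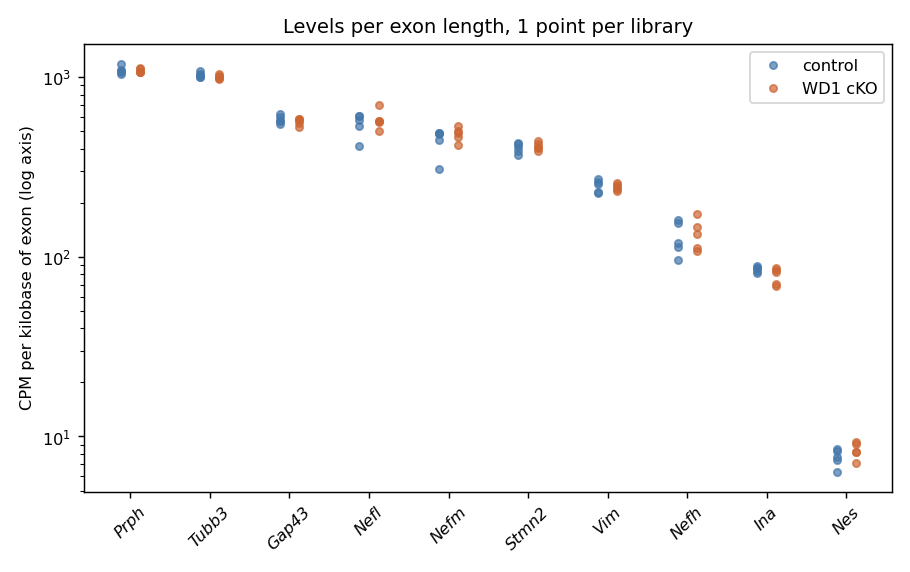
Level of the 10 genes per exon length (vertical log axis, CPM per kilobase of exon) in each of the 5 control (blue) and 5 *WD1* cKO (orange) libraries, 1 point per library. *Prph* and *Tubb3* lie near 1000, *Nes* below 10, and the points of both genotypes overlap for every gene.

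The comparison of *WD1* cKO with control ganglia asks whether loss of *Dach1* alters these transcripts. By edgeR's quasi-likelihood test and Benjamini-Hochberg adjustment, 0 of 10 genes had an adjusted p under 0.05, against 0.0400% of all genes tested (7 genes), and DESeq2 also called 0. At an unadjusted p under 0.05 the count was again 0 of 10, beside 4.50% of all genes, and no gene's groups were free of overlap, beside 1.06%. The unadjusted count rose to 1 of 10 in 5 of 18 alternatives, with *Ina* in 3 of them and *Nes* in 2. In direction, 5 genes had a positive and 5 a negative log2 fold change, with a median of 0.0092 against 0.00022 over all genes. The median size of change without regard to sign was 0.050, beside 0.053 over all genes. The 95% intervals of the log2 fold changes together spanned -0.27 to 0.40, both ends set by *Nefh*, and the narrowest was that of *Tubb3*, from -0.11 to 0.039.

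**Figure D2:**
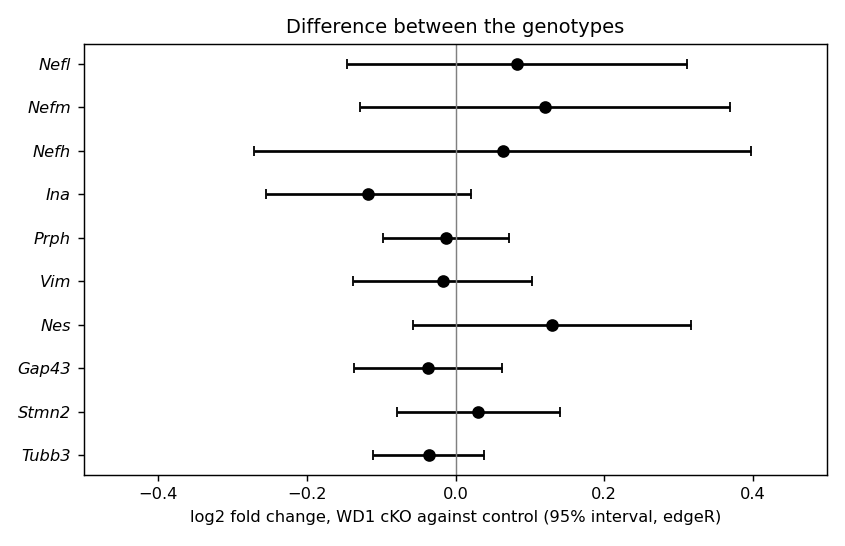
Log2 fold change of *WD1* cKO against control for the 10 genes (horizontal axis), with the 95% interval of edgeR's quasi-likelihood fit over 5 and 5 libraries. Every interval includes 0, and those of *Nefl*, *Nefm* and *Nefh* are wider than those of *Prph*, *Gap43*, *Stmn2* and *Tubb3*.

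*Nefl* (ENSMUSG00000022055), the core subunit without which neurofilaments do not assemble, was at 1809, 1952, 1406, 2052 and 2044 CPM in control embryos 1 to 5 and at 1906, 1924, 1707, 1918 and 2358 CPM in cKO embryos 1 to 5. Control 3 was the lowest and cKO 5 the highest of the 10 libraries, and the groups overlapped. The means were 1853 ± 268 and 1963 ± 239 CPM (SD, n = 5 each), with a log2 fold change of 0.083 (SE 0.105, edgeR's quasi-likelihood test, Benjamini-Hochberg adjusted p = 1.00). *Nefm* (ENSMUSG00000022054), the medium subunit and a neighbour of *Nefl* on chromosome 14, was at 2599, 2819, 1783, 2799 and 2838 CPM in the controls and at 2907, 2843, 2421, 2684 and 3103 CPM in the cKO. Control 3 was again the lowest and cKO 5 the highest. The log2 fold change of *Nefm* was 0.12 (SE 0.114, edgeR's quasi-likelihood test, Benjamini-Hochberg adjusted p = 1.00).

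*Nefh* (ENSMUSG00000020396), the heavy subunit whose tail is phosphorylated in mature axons, was at 479.5, 453.9, 385.2, 612.8 and 643.7 CPM in the controls and at 449.7, 538.4, 429.6, 582.2 and 691.1 CPM in the cKO. Embryos 4 and 5 of either genotype lay above all others, and control 3 was the lowest. The log2 fold change was 0.063 with an SE of 0.154 (edgeR's quasi-likelihood test, Benjamini-Hochberg adjusted p = 1.00), the largest SE of the 10 genes.

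The differences of the triplet rested on control 3, and those of *Nefl* and *Nefh* also on cKO 5, the libraries at either end. Without control 3 the log2 fold change was -0.0012 for *Nefl*, 0.015 for *Nefm* and -0.025 for *Nefh* (edgeR's quasi-likelihood test, Benjamini-Hochberg adjusted p = 1.00 for each). Without cKO 5 it was 0.0060, 0.078 and -0.046 in the same order. Markers of other cells also set control 3 apart. Its 8 spinal cord markers summed to 20.8 CPM, against 0.405 to 9.24 CPM in the other controls and 0.711 to 2.65 CPM in the cKO, and its 8 connective tissue markers summed to 6410 CPM, against 4708 to 4998 CPM in the other controls and 5060 to 6050 CPM in the cKO. The glycine transporter gene *Slc6a5*, which marks inhibitory spinal interneurons, was at 4.66 CPM in its highest control library and at most at 0.364 CPM in the cKO. The 11 pan-neuronal markers summed to 4736 CPM in control 3, against 4769 to 5345 CPM in the other 9 libraries. The 10 markers of large-diameter neurons summed to 1656 CPM in control 3, against 1745 to 1937 CPM in the other 9 libraries. By contrast, its nociceptor markers (3847 CPM), Schwann and satellite cell markers (1415 CPM) and erythroid markers (1074 CPM) lay within the range of the other controls. The part of these markers in the triplet's values was not tested.

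*Ina* (ENSMUSG00000034336), the neuronal filament subunit of early axons, had the lowest p-value of the 10 genes. Its level was 279.8, 281.7, 286.7, 262.3 and 269.3 CPM in the controls and 280.2, 272.8, 266.7, 228.5 and 223.8 CPM in the cKO. Embryos cKO 4 and cKO 5 lay below all other libraries, whereas cKO 1, 2 and 3 lay within the range of the controls. The means were 276 ± 9.94 and 254 ± 26.3 CPM (SD, n = 5 each), with a log2 fold change of -0.12 (95% interval -0.25 to 0.020, edgeR's quasi-likelihood test, unadjusted p = 0.0877, Benjamini-Hochberg adjusted p = 1.00). Within embryos numbered 4 and 5 the log2 fold change was -0.23 (edgeR's quasi-likelihood test, Benjamini-Hochberg adjusted p = 0.307), and within those numbered 1 to 3 it was -0.051 (adjusted p = 0.929 by the same edgeR test).

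*Prph* (ENSMUSG00000023484) was at 2358, 2204, 2086, 2173 and 2137 CPM in the controls and at 2140, 2236, 2140, 2136 and 2210 CPM in the cKO. Both the highest and the lowest library were controls. With a log2 fold change of -0.013 and a 95% interval from -0.10 to 0.07, *Prph* had the smallest estimate of the 10 genes (edgeR's quasi-likelihood test, Benjamini-Hochberg adjusted p = 1.00).

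**Figure D3:**
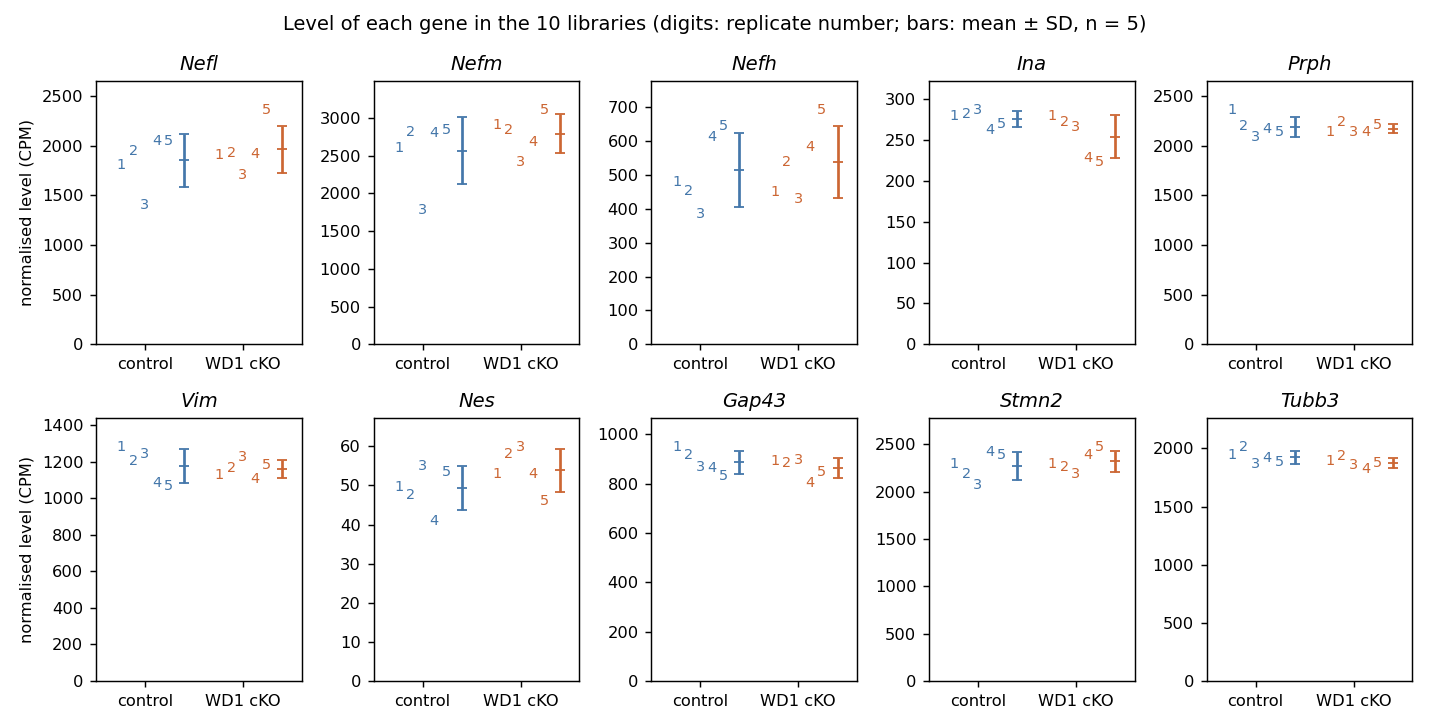
Normalised level of each gene (vertical axes, CPM, each starting at 0) in the 5 control (blue) and 5 *WD1* cKO (orange) libraries, drawn as replicate numbers, with the mean ± SD of each group. The groups overlap for all 10 genes, control 3 is lowest for *Nefl*, *Nefm* and *Nefh*, and cKO 4 and 5 are lowest for *Ina*.

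The make-up of the filaments was compared as reads of one gene per read of *Nefl* in the same library, which does not depend on the scaling between libraries. There were 0.277 ± 0.0318 *Nefh* reads per *Nefl* read in control and 0.273 ± 0.0283 in cKO ganglia (SD, n = 5 each, exact two-sided permutation test, p = 0.833). For *Nefm* the ratio was 1.38 ± 0.0710 and 1.43 ± 0.0796 (n = 5 each, exact permutation p = 0.357), the least variable of these ratios. *Prph* gave 1.20 ± 0.187 and 1.12 ± 0.115 (n = 5 each, exact permutation p = 0.429). The ratio of *Ina* differed most in size, at a log2 difference of -0.21 with an exact permutation p of 0.317, and at -0.10 without control 3 and -0.099 without cKO 5. That of *Vim* differed by -0.10, with an exact permutation p of 0.563. Adjusted over the 5 ratios by Benjamini-Hochberg, the lowest of these exact permutation p-values was 0.704, where the smallest raw p the design allows is 0.00794.

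*Vim* (ENSMUSG00000026728) was at 1282, 1203, 1244, 1085 and 1070 CPM in the controls and at 1127, 1166, 1229, 1106 and 1185 CPM in the cKO. All cKO values lay within the range of the controls, and the log2 fold change was -0.017 (SE 0.0553, edgeR's quasi-likelihood test, Benjamini-Hochberg adjusted p = 1.00). *Nes* (ENSMUSG00000004891) was at 49.6, 47.6, 55.0, 40.8 and 53.5 CPM in the controls and at 52.8, 58.0, 59.8, 52.8 and 45.9 CPM in the cKO. Embryos cKO 2 and cKO 3 lay above every control, but cKO 5 lay below 4 of the controls. Its log2 fold change of 0.13 (SE 0.0860, edgeR's quasi-likelihood test, Benjamini-Hochberg adjusted p = 1.00) was the largest of the 10 genes, but without control 4 it was 0.067 and below that of *Nefl*, *Nefm* and *Nefh*. Each library held 1017 to 1807 reads of *Nes*, so counting error was at most 3.14%, below the spread between embryos.

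Markers of the cells that use these 2 filaments are given beside them. All 8 connective tissue markers and all 8 proliferation markers had positive log2 fold changes, with medians of 0.089 and 0.11, and 8 of 10 Schwann and satellite cell markers did so, with a median of 0.080. Among these lists 1 gene had an unadjusted p under 0.05 by edgeR's quasi-likelihood test: *Lum*, a collagen-binding proteoglycan of connective tissue, at 33.1 ± 4.93 CPM in control and 38.4 ± 1.57 CPM in cKO (adjusted p = 1.00). Their part in the values of *Vim* and *Nes* was not tested.

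The growth-cone and microtubule genes had, with *Prph*, the narrowest intervals of the 10 genes. *Gap43* (ENSMUSG00000047261), a membrane phosphoprotein of growing axons, was at 949, 918, 869, 865 and 833 CPM in the controls and at 893, 884, 895, 802 and 846 CPM in the cKO, with a log2 fold change of -0.037 (edgeR's quasi-likelihood test, Benjamini-Hochberg adjusted p = 1.00). *Stmn2* (ENSMUSG00000027500), a regulator of microtubule dynamics in growing axons, was at 2290, 2183, 2073, 2419 and 2389 CPM in the controls and at 2293, 2261, 2187, 2385 and 2473 CPM in the cKO. Control 3 was lowest and cKO 5 highest, as for *Nefl*, *Nefm* and *Nefh*. The log2 fold change of *Stmn2* was 0.031, and it was -0.0003 without control 3 and 0.0041 without cKO 5 (edgeR's quasi-likelihood test, Benjamini-Hochberg adjusted p = 1.00 for each).

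*Tubb3* (ENSMUSG00000062380) was at 1942, 2012, 1869, 1914 and 1882 CPM in the controls and at 1889, 1938, 1858, 1819 and 1878 CPM in the cKO. The means of 1924 ± 56.8 and 1876 ± 43.5 CPM (SD, n = 5 each) differed by a log2 fold change of -0.036 (SE 0.0343, edgeR's quasi-likelihood test, Benjamini-Hochberg adjusted p = 1.00). The libraries of *Tubb3* lay closer together than those of any other of the 10 genes.

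The spread between embryos of one genotype differed widely among the 10 genes. The SD of log2 CPM within groups was 0.295 for *Nefh*, 0.224 for *Nefm* and 0.200 for *Nefl*, which exceeded that of 99.1%, 98.1% and 97.3% of the 2529 genes with a mean level of at least 100 CPM, whose median was 0.0668. At the other end, the SD was 0.0381 for *Tubb3*, above that of 9.29% of those genes, and 0.0520 for *Prph*, above that of 28.8%. *Gap43* (0.0713), *Stmn2* (0.0816), *Vim* (0.0933) and *Ina* (0.114) lay between. Control 3 was lowest for the triplet, with log2 differences from the 10-library mean of -0.573 (*Nefm*), -0.428 (*Nefl*) and -0.427 (*Nefh*). The SDs of the triplet without control 3 were not calculated. The reads of the triplet made up 0.360% to 0.543% of all counts in the controls and 0.461% to 0.613% in the cKO.

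Part of this spread followed the replicate number of the titles, whose meaning the labels do not give. In the 4 libraries numbered 4 and 5, *Nefh* was at 582 to 691 CPM, above the 385 to 538 CPM of all 6 libraries numbered 1 to 3. *Stmn2* behaved likewise, at 2385 to 2473 against 2073 to 2293 CPM, and *Gap43* was lower in all 4, at 802 to 865 against 869 to 949 CPM. *Nefl* exceeded all libraries numbered 1 to 3 in 3 of the 4, and *Ina* and *Vim* were below all of them in 3 of the 4. These are descriptions without a test, since the split was seen in the data. Some summed markers moved along the same split. Erythroid markers were at 155 to 243 CPM in the libraries numbered 4 and 5 against 510 to 2471 CPM in the others. Schwann and satellite cell markers were at 1559 to 1715 against 1262 to 1513 CPM. Neuronal sums also ran higher in numbers 4 and 5, but with overlap. Pan-neuronal markers were at 5002 to 5345 against 4736 to 5029 CPM, and large-diameter markers at 1855 to 1937 against 1656 to 1899 CPM. Their part in the split of *Nefh*, *Stmn2* and *Gap43* was not tested.

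**Figure D4:**
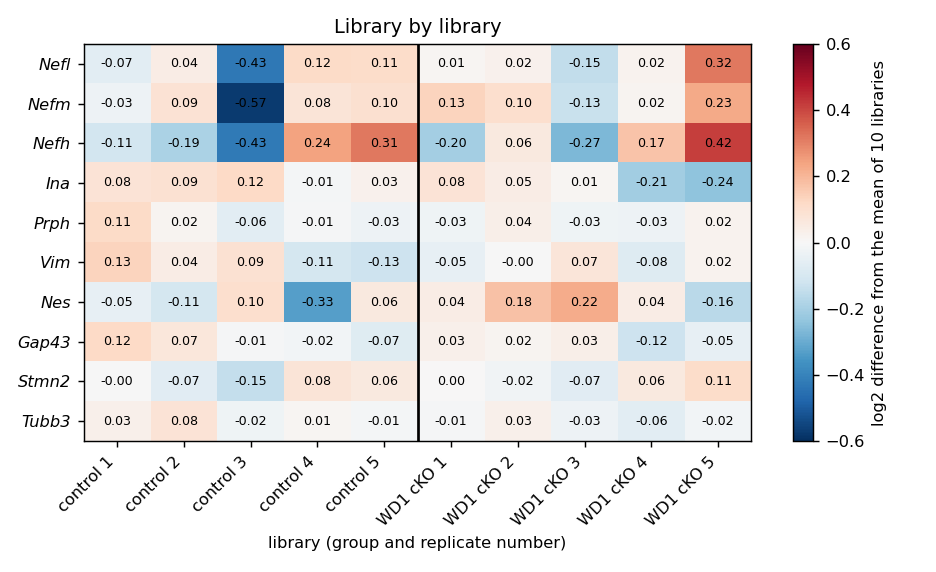
Log2 difference of each gene (rows) in each library (columns, 5 control then 5 *WD1* cKO) from the gene's mean over the 10 libraries, red above and blue below. The lowest values are those of *Nefm*, *Nefl* and *Nefh* in control 3 (blue), and the highest are those of *Nefh* and *Nefl* in cKO 5 (red), while the *Prph* and *Tubb3* rows are nearly white.

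Across the 10 libraries *Nefl* and *Nefm* varied together, with Pearson's r = 0.939 (permutation test with 100000 resamples, p = 0.00014, adjusted p = 0.00315 over 45 pairs) and Spearman's rho = 0.709 (permutation p = 0.0266, adjusted p = 0.171). Without control 3 and cKO 5, the libraries farthest from the median of *Nefl*, r was 0.827. Within the 6 libraries numbered 1 to 3 it was 0.993 (exact permutation p = 0.00833), and the 4 libraries numbered 4 and 5 were too few for a value. Since *Nefh*, *Stmn2* and *Gap43* fell into separate ranges by replicate number, their relations are given within numbers 1 to 3 alone. There r was 0.789 for *Nefl* and *Nefh* (6 libraries, exact permutation p = 0.0806), 0.806 for *Nefl* and *Stmn2* (exact permutation p = 0.0708) and 0.767 for *Nefh* and *Stmn2* (exact permutation p = 0.0917). Among all 24 pairs with *Nefh*, *Stmn2* or *Gap43*, 2 had an exact permutation p under 0.05: *Nefm* and *Stmn2* (r = 0.850, exact p = 0.0319) and *Prph* and *Gap43* (r = 0.845, exact p = 0.0403). None of the 24 passed after adjustment over them (lowest adjusted exact permutation p = 0.372).

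The genes most like the mean of *Nefl*, *Nefm* and *Nefh* over the 10 libraries were *Gm45869* (r = 0.975), the synaptic vesicle protein gene *Sv2b* (0.972), *Nrg1* (0.969), whose axonal product signals to Schwann cells, *Srxn1* (0.968), a sulfiredoxin, and *Zyg11b* (0.968). *Vim* and *Nes* did not vary together detectably (Pearson's r = 0.246, permutation test, adjusted p = 0.604 over 45 pairs). Nearest to the mean of *Vim* and *Nes* were *Ccnl1* (r = 0.943), *Lpar4* (0.928), *Trim59* (0.920), the replication kinase gene *Cdc7* (0.915) and the proteoglycan gene *Acan* (0.914). They are the highest of 17480 genes ranked, so the values describe these 10 libraries, which share the split by replicate number, and carry no test.

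Of 108 further genes in 7 lists, 6 of them of cytoskeleton genes and 1 of genes known from axon injury and regeneration, 106 were tested. By edgeR's quasi-likelihood test and Benjamini-Hochberg adjustment 0 had an adjusted p under 0.05, as with DESeq2, and 2 had an unadjusted p under 0.05, or 1.89% beside 4.50% of all genes. Both were lower in the cKO: *Evl*, an actin regulator of the Ena/VASP family, at 139 ± 9.21 CPM in control and 127 ± 7.07 CPM in cKO (unadjusted p = 0.0201 by edgeR), and *Gsk3a*, a kinase of the GSK-3 family, at 65.0 ± 5.29 and 59.5 ± 2.07 CPM (unadjusted p = 0.0342 by edgeR), each with an adjusted p of 1.00. The median log2 fold change of the 106 genes was 0.0014.

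By list, the median log2 fold change was 0.015 for 17 linkers, motors and kinases of filaments (10 positive), -0.0085 for 13 other tubulins (6 positive) and -0.0056 for 21 microtubule-associated genes (10 positive). It was 0.0089 for 20 growth-cone and actin genes (11 positive), 0.0060 for 11 spectrin and ankyrin genes (7 positive) and 0.025 for 13 genes of axon injury and regeneration (7 positive). The 11 other intermediate filament genes had a median of -0.11 with 3 positive, from -0.70 to 0.093, and none of them passed the test. Genes of high level are given as examples, none of which passed the test. The cytoskeletal linker gene *Dst* was at 1205 CPM in control and 1221 CPM in cKO, and the axonal motor gene *Kif5a* at 1988 and 1946 CPM. *Map1b*, whose product binds axonal microtubules, was at 3657 and 3783 CPM, and the spectrin gene *Sptan1* at 3033 and 3046 CPM. The synemin gene *Synm*, whose product joins vimentin filaments, was at 321 and 334 CPM.

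Markers of the neurons themselves are given beside the neuronal filament genes, and their part in the values of those genes was not tested. The 11 pan-neuronal markers had a median log2 fold change of -0.022 (2 positive) and none passed an unadjusted p of 0.05 by edgeR's quasi-likelihood test. The 10 markers of large-diameter neurons, in which the triplet is rich, had a median of 0.095. They summed to 1656 to 1937 CPM in control and 1771 to 1925 CPM in cKO. *Ret* was the highest of them, at 747 CPM in control and 791 CPM in cKO. The study also places Ret in non-peptidergic nociceptors, so the sum is not specific to large-diameter neurons. By edgeR's quasi-likelihood test the log2 fold change was 0.43 for *Spp1* (unadjusted p = 0.0160, adjusted p = 1.00) and 0.34 for *Mafa* (unadjusted p = 0.0452, adjusted p = 1.00). That of *Ntrk2*, the receptor for BDNF, was -0.18 (unadjusted p = 0.00611, adjusted p = 1.00 by edgeR). The 10 nociceptor markers had a median of -0.067, 9 of them negative, and none had an adjusted p under 0.05 by edgeR's quasi-likelihood test. The median was 0.032 for 8 endothelial and mural, -0.58 for 8 muscle, -0.039 for 8 macrophage and -0.94 for 6 erythroid markers, none of which had an unadjusted p under 0.05. Muscle markers summed to 26.2 to 226 CPM in control and 56.1 to 124 CPM in cKO. Of the 8 spinal cord markers 1 was tested, and no marker of any list was at 0 in every library.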

How the data were processed

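Stranded mRNA libraries were made from DRG of E18.5 embryos, 5 per genotype. Per the submitters' processing notes the authors used bcl2fastq 2.20.0.422, STAR 2.7.8a, featureCounts 2.0.1 and GRCm39, and they deposited raw counts per gene, without normalisation. The strand setting and the treatment of reads that map to several places are not given in the sources used here.

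The main analysis used edgeR 4.0.16 (R 4.3.3). A gene was tested if 5 or more libraries each had 10 or more counts of it (3 or 2 libraries for the fits within replicate numbers). Counts were scaled by TMM. Groups, taken from the titles, were compared by the quasi-likelihood test without covariates, with Benjamini-Hochberg adjustment over 17490 genes. DESeq2 1.42.0, other scalings and filters, a replicate block, the *Xist* level as a covariate and leaving out each library were alternatives. Ratios and correlations used permutation tests (Python 3.11.15, numpy 2.4.6, scipy 1.17.1).

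Symbols (52081 of 55414 identifiers) and exon lengths came by gene identifier from GENCODE M21, an annotation of GRCm38. A level per length divides CPM by the total length of a gene's exons. Replicates were not duplicates: between libraries of one group, chi-square was 4.33 to 15.7 times its degrees of freedom. Tests between the genotypes set their difference against the spread between these embryos, whose litters are not given. Correlation tests over the 10 libraries treated them as exchangeable, whatever their replicate number. The 10 genes and all lists were chosen with earlier results of these data known. Named were the 10 genes, *Dach1*, in other lists genes with an unadjusted p under 0.05 and, from some, the genes of highest level, and the 5 genes most correlated with each of 2 means. *Slc6a5* was named after its values were seen. For 1 gene of these lists the result is not reported here.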

Additional observations from a re-analysis of the deposited data

Results flagged for a closer look

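The level of *Nefm* in control 3 was 1783 CPM, while the other 4 controls lay between 2599 and 2838 CPM. The gap to the nearest control was 0.773 of the group's range, above Dixon's 95% critical value for 5 samples. Chance gives about 1.5 such gaps in the 30 groups examined, and 1 was found. In the same library *Nefl* and *Nefh* were also the lowest of the 10 libraries.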

How the results depend on the processing

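In all 18 alternatives 0 of the 10 genes had an adjusted p under 0.05, and the lowest adjusted p was that of *Ina* (0.307, replicate numbers 4 and 5). The 7 genes called over the whole table became 4 among genes averaging 100 counts or more, 4 with *Xist* as a covariate, 19 with DESeq2, 2 within numbers 1 to 3, 3 within numbers 4 and 5, and 3 to 6 when any 1 library was left out. Same-numbered libraries deviated together with correlations of 0.329, 0.0404, 0.320, 0.354 and 0.390 for numbers 1 to 5, and not every library matched its own number best, so the numbers were not taken as pairs. With a replicate block 8 genes were called, 0 of them among the 10, and *Ina* was at -0.12 (edgeR, unadjusted p = 0.0158, adjusted p = 0.629). Under the block the *Ina* to *Nefl* ratio, lower in the cKO in 5 of 5 same-numbered comparisons, had an exact permutation p of 0.0625, the smallest that 5 pairs allow. The other 4 alternatives with 1 gene at an unadjusted p under 0.05 by edgeR were without cKO 1 (*Ina*, 0.0315), without cKO 5 (*Nes*, 0.0462), numbers 1 to 3 (*Nes*, 0.0440) and numbers 4 and 5 (*Ina*, 0.000669).

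Several differences near 0 changed sign. With *Xist* as a covariate *Prph* was at 0.0011 and *Vim* at 0.0013, and within numbers 4 and 5 they were at 0.0114 and 0.0878. Leaving out 1 library gave log2 fold changes of -0.0012 to 0.13 for *Nefl*, -0.046 to 0.16 for *Nefh*, -0.0003 to 0.055 for *Stmn2*, 0.067 to 0.18 for *Nes*, -0.030 to 0.015 for *Prph* and -0.050 to 0.015 for *Vim*. The log2 difference in the *Nefh* to *Nefl* ratio ran from -0.082 to 0.030 and that of *Vim* to *Nefl* from -0.18 to 0.014. Within numbers 4 and 5 the ratio to *Nefl* differed by -0.0201 for *Nefm* and 0.0333 for *Vim*. The cause was not tested. Over 10 libraries 4 of 45 correlations passed, and 0 within numbers 1 to 3, where a single pair of genes could not pass after adjustment with 6 libraries. The lowest count of these genes was 1017, a counting error of 3.14%, and the source of the spread between libraries was not tested.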
